A study of Mus musculus with 179 samples.

Results

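The genes described here are 34 genes of the interferon response and of antigen presentation, taken by name from a fixed list and measured in single cells of mouse pancreatic organoids. They are 34 of the 32100 genes in the deposited tables, and all 34 had at least 1 unique molecular identifier (UMI, a tag that counts 1 captured RNA molecule). All cells form 1 group, labelled as acinar cells of exocrine pancreas from wild type C57BL6 mice, and were kept in culture for 9 days as 3-dimensional organoids in Matrigel, a gel of basement membrane proteins. Their RNA was read with Smart-seq3, a plate method that sequences full transcripts and counts molecules by UMIs. The labels tie no cell to an animal or a culture and name no interferon treatment or infection. A cell is not a replicate, so values are descriptions with no test, and their intervals cover counting error only. Markers of the acinar label were mixed: the digestive enzyme genes Ctrb1, Prss2 and Clps had a UMI in 97.2%, 72.1% and 70.4% of cells. The other acinar genes looked at were found in fewer cells: Cela1 in 43.02%, Cpa1 in 37.4%, Cela2a in 22.9% and Amy2b in 18.99%. Cela3b had a UMI in 17.9% of cells, Bhlha15 in 12.3%, Rbpjl in 1.68% and Pnlip in 1.12%. Ptf1a, the factor that holds acinar identity, had a UMI in 1 cell. The median cell held 123.1 UMIs in 1000000 over 12 acinar genes and 8367 over 8 duct genes, and the duct and simple epithelial keratins Krt19 and Krt8 had UMIs in every cell.

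Interferons are secreted proteins, and cells release those of type I on sensing viral nucleic acid. Type I interferons bind a receptor made of Ifnar1 and Ifnar2, type II interferon binds Ifngr1 and Ifngr2, and both signal through JAK kinases and STAT factors to a shared set of target genes. Targets of type I signalling often carry an interferon-stimulated response element (ISRE), which a complex with Stat2 and Irf9 binds, and targets of type II signalling a gamma-activated site (GAS). Major histocompatibility complex class I molecules, a heavy chain such as H2-K1 or H2-D1 paired with B2m, show peptides from inside the cell to T cells. Nearly all cell types carry them at rest, and interferon raises them further.

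Promoter letters of the genes that lead the results are given first, because they show which members hold an exact match to the letters of a promoter element. Sequences are from RefSeq on GRCm38.p6, each shows 150 bases that end 51 bases before the gene start on the strand of the gene, and capitals mark matches to an ISRE core (GAAA, any 2 bases, GAAA) or to the kappa B site of class I genes (GGGGA, any 1 base, TCCCC), searched on both strands. Isg15 lies at chr4:156200869-156201018 on the minus strand, Ifit3 at chr19:34583329-34583478 on the plus strand, Irf7 at chr7:141266475-141266624 on the minus strand, and Oasl1 at chr5:114923040-114923189 on the plus strand. B2m lies at chr2:122147487-122147636 on the plus strand, H2-K1, for the first of its 2 RefSeq starts, at chr17:34000398-34000547 on the minus strand, and H2-D1 at chr17:35262894-35263043 on the plus strand.
Isg15: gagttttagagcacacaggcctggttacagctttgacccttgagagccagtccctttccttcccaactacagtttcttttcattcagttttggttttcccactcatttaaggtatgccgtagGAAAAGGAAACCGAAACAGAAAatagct
Ifit3: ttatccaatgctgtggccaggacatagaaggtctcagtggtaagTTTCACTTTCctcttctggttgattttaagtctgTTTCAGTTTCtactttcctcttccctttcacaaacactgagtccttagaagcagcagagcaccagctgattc
Irf7: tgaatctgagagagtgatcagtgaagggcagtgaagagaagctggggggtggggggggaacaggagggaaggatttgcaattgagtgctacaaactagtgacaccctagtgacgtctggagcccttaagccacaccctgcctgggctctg
Oasl1: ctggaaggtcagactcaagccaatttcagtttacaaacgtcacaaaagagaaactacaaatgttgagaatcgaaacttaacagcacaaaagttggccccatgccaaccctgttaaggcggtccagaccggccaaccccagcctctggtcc
B2m: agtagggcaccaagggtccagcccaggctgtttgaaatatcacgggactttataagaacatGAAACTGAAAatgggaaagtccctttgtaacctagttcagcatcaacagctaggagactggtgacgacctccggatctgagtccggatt
H2-K1: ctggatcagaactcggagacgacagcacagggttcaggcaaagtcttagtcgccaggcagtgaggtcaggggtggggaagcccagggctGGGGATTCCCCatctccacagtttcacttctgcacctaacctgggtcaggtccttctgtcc
H2-D1: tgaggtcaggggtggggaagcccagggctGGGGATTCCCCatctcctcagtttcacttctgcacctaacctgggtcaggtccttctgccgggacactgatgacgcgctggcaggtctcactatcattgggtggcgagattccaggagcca

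In Isg15 the capitals cover 3 overlapping ISRE matches that begin 78, 72 and 66 bases before the start, and in Ifit3 they cover 2 separate matches, on the other strand. B2m had 1 match, which ends 130 bases before its start. Over the 250 bases before the start, 8 of the 27 members with a promoter sequence had an ISRE match, namely Isg15, Ifit1, Ifit3, Stat2, Bst2, Rsad2, Ifitm2 and B2m, whereas 978 of all 32851 promoters had one (2.98%). The kappa B letters stood in H2-K1 and H2-D1 and in 15 of all 32851 promoters (0.0457%). A GAS match (TTCNNNGAA, either strand) stood in Irf1, Ifit2, Ifnar2 and Bst2, where it overlapped an ISRE match, and in 2306 of all promoters (7.02%). Irf7 and Oasl1 held none of these letters in this window. A match is a run of letters and not a measured binding site. Variants of these letters were not searched, so a gene without a match, such as H2-K1 or H2-D1 for the ISRE, may still carry the element.

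Levels are UMIs of a gene in 1000000 UMIs (CPM), pooled over all cells, with an exact 95% Poisson interval. Some of the 34 genes had UMIs in most cells and others in few. The class I genes B2m, H2-K1 and H2-D1 summed to 939 CPM (928 to 951), with a median cell at 903 CPM and quartiles at 765 and 1048 CPM. The 21 genes that interferon is known to induce (Isg15, Ifit1, Ifit2, Ifit3, Ifih1, Ddx58, Dhx58, Stat2, Irf1, Irf7, Irf9, Bst2, Oasl1, Oasl2, Usp18, Rsad2, Ifi35, Ifitm2, Ifitm3, Rtp4 and Parp14) summed to 385 CPM (378 to 393), with a median cell at 308 CPM and quartiles at 218 and 433 CPM. Counted as reads per kilobase of all annotated exons in 1000000 reads, the class I genes summed to 572 and the 21 induced genes to 289. Reads per UMI were alike in short and long genes, at 2.45 for B2m (0.86 kilobases) and 2.23 for Parp14 (9.31 kilobases). Values per length thus lower long genes and are not corrected levels. In 19 of the 34 genes the median cell was above 0 CPM, and in the other 15, of which 11 were induced genes, the median cell had no UMI. A median cell held 165267 UMIs (range 3258 to 329522), so that 1 UMI equals 6.05 CPM there, and 0 UMIs in a cell is not absence of the RNA.

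**Figure D1:**
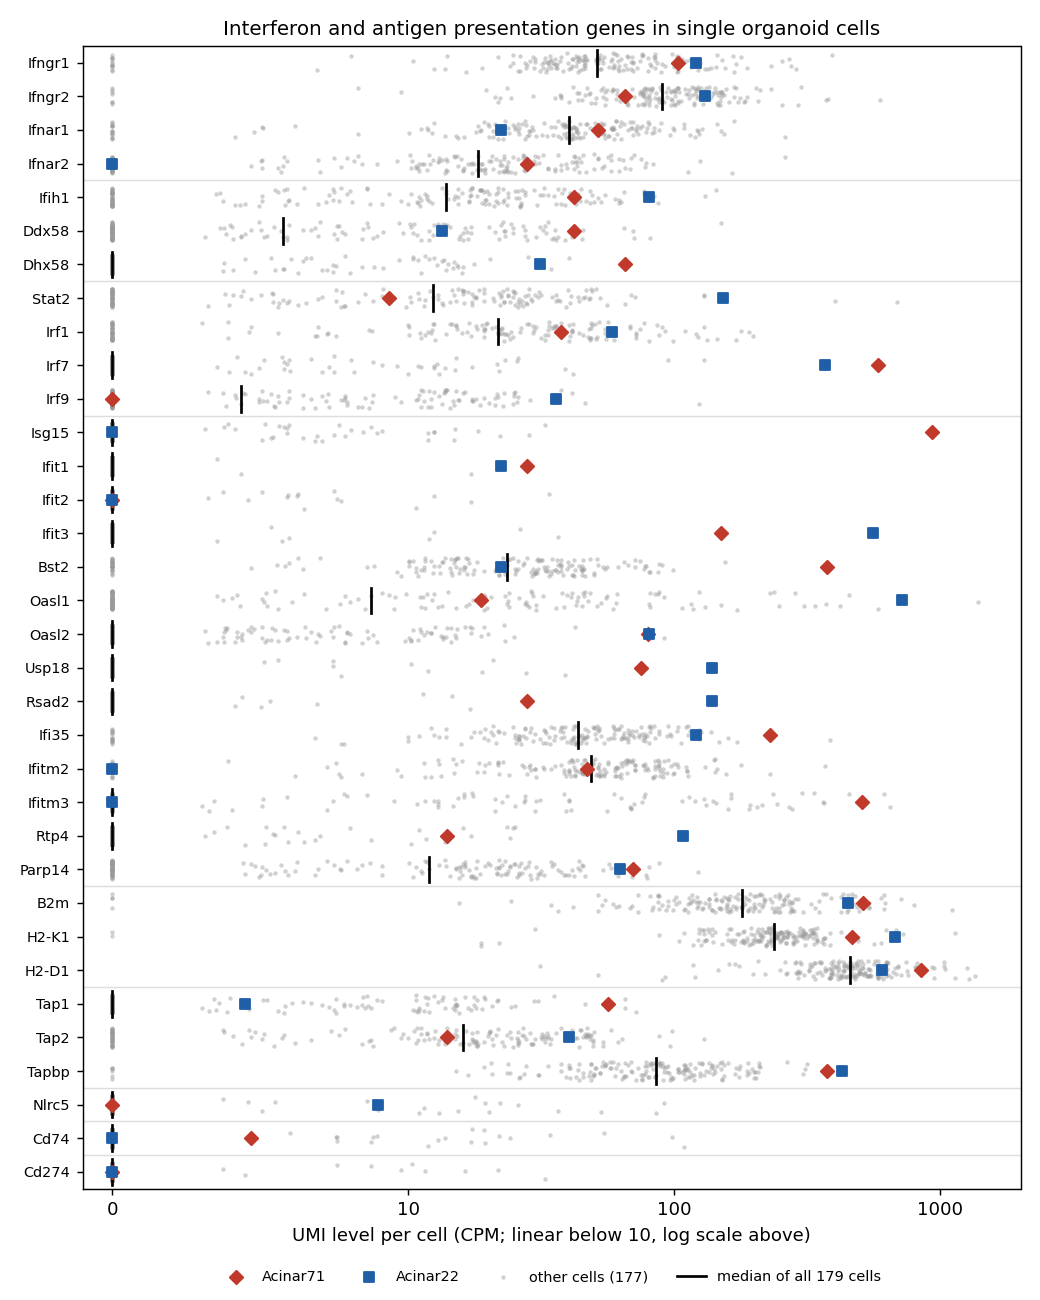
UMI level of each of the 34 genes in every cell, in CPM on an axis that is linear below 10 and logarithmic above, grouped by role from receptors at the top to the checkpoint ligand at the bottom. Red diamonds are Acinar71, blue squares Acinar22, grey points the other cells and black bars the median of all cells; Isg15, Ifit3 and Irf7 have a median at 0 and stand far out in one or both named cells, whereas H2-D1 is above 0 in every cell.

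All receptor chains were carried in most cells. Ifngr2, the signalling chain of the type II receptor, had 106.7 CPM (102.9 to 110.6) and a UMI in 96.1% of cells. Ifngr1, the chain that binds type II interferon, had 65.3 CPM (62.3 to 68.3) and a UMI in 93.3%. Ifnar1 and Ifnar2, the chains of the type I receptor, had 45.03 CPM (42.57 to 47.59) in 91.6% of cells and 26.92 CPM (25.02 to 28.92) in 81.6%. The order of the first pair turned round per length, where Ifngr1 had 42.5 and Ifngr2 31.5 reads per kilobase in 1000000, against 7.88 for Ifnar1 and 7.26 for Ifnar2. Ifngr1 also had 4.30 reads per UMI, the highest of the 34 genes, against 2.32 over all genes. Over cells the quartiles of neighbours in the order by CPM overlapped, with 60.8 and 129.3 CPM for Ifngr2 and 33.98 and 81.4 CPM for Ifngr1.

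The sum of the receptor chains stood apart in 1 cell, Acinar74, which held 960 CPM over the 4 chains and was the highest of all cells. Ifngr2 had 595 CPM there, against a median of 89.3 CPM in the other cells. Ifnar2 had 164.9 CPM (51 UMIs) against a median of 18.2 CPM, and Ifnar1 had 168.1 CPM (52 UMIs) against 39.9 CPM. These 3 genes are neighbours on chromosome 16, between bases 91372783 and 91565623 of GRCm38. Ifngr1 lies on chromosome 10 and was not raised in Acinar74, at 32.3 CPM against a median of 51.4 CPM over all cells. The genes around the 3 on chromosome 16 were also high in Acinar74: Il10rb, a receptor chain shared by interleukin 10 and type III interferon, had 187.5 CPM against a median of 30.2 CPM, and Gart, an enzyme of purine synthesis, had 187.5 CPM against 42.2 CPM. Of the 9 genes of this stretch with at least 10 CPM pooled, 8 were at 3.23 to 9.04 times the median of the other cells and Donson was at 1.65 times. All of chromosome 16 held 3.84% of UMIs in Acinar74, the highest share of any cell, against a median of 2.45% and at most 3.67% in the others, and whether this share has a part in the receptor levels was not tested. Across all but 18 shallow cells, thinned to 40000 UMIs each, the Spearman correlation was 0.24 between Ifnar1 and Ifnar2 and −0.04 between Ifngr1 and Ifngr2, in cells of 1 series set to the same depth.

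**Figure D2:**
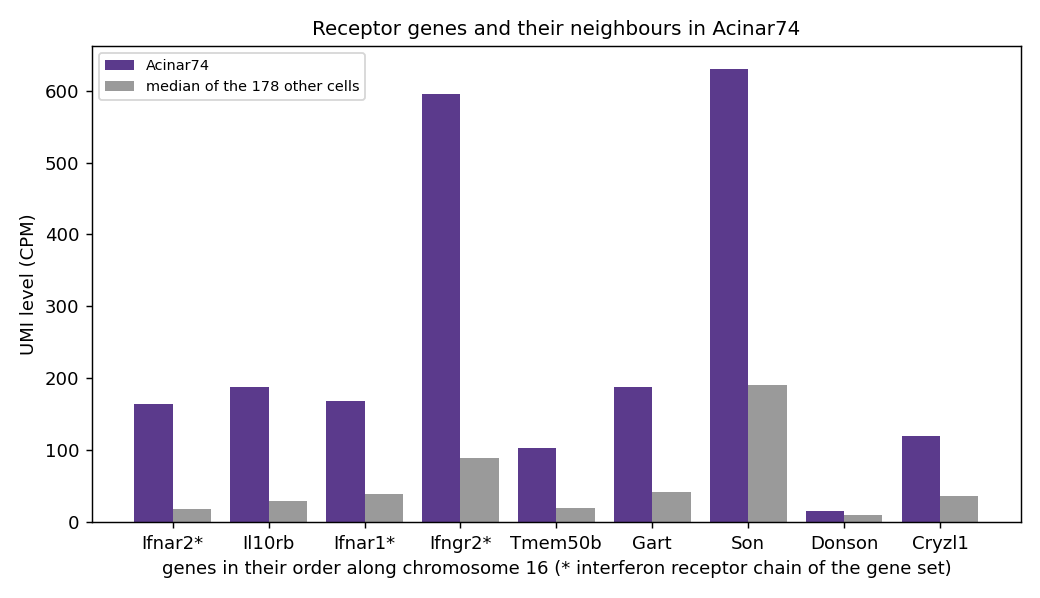
UMI level in CPM of 3 interferon receptor genes (asterisks) and the genes next to them, in their order along chromosome 16, in Acinar74 (purple) and as the median of all other cells (grey). Bars start at 0; Ifngr2 stands at 595 CPM in Acinar74 against 89.3 CPM, and Donson is the gene with the smallest gap.

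The sensors of viral RNA were low and spread over many cells. Ifih1 (MDA5, a sensor of long double-stranded RNA) had 19.6 CPM (17.98 to 21.3) and a UMI in 77.7% of cells. Ddx58 (RIG-I, a sensor of short RNA ends) had 13.3 CPM (11.9 to 14.7) in 59.8%, and Dhx58 (LGP2, a regulator of both) had 4.24 CPM (3.51 to 5.08) in 28.5%. Among transcription factors, Irf1 had 32.7 CPM (30.6 to 34.9) in 77.1% of cells and Stat2 had 22.4 CPM (20.7 to 24.3) in 73.2%. Irf9, which binds DNA for the Stat complex, had 7.33 CPM (6.36 to 8.41) in 53.1%. Irf7, which amplifies type I interferon production, had 9.99 CPM (8.85 to 11.2) but a UMI in only 25.1%, and Acinar71 and Acinar22 held 74.5% of its UMIs. Irf9 shares exon bases with Rnf31 on the same strand, and Irf7 shares 45 of them with Phrf1 on the other strand. No source used here says whether counting used the strand, so reads from those bases cannot be told apart.

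The effectors fell into a broad and a rare group. Ifitm2, a membrane protein that hinders virus entry, had 53.3 CPM (50.6 to 56.1) in 91.6% of cells. Of the 50-base words in its transcripts, 48.5% also occur in other genes, chiefly Gm45717, so its count is uncertain. Ifi35, a cytoplasmic interferon-induced protein, had 51.6 CPM (48.97 to 54.3) in 91.6% as well. Bst2 (tetherin, which holds budding virus at the membrane) had 32.1 CPM (29.99 to 34.2) in 84.9%, and Parp14, an ADP-ribosyltransferase, had 18.2 CPM (16.6 to 19.8) in 69.3%. Ifitm3, a close relative of Ifitm2, had a like pooled level of 50.997 CPM (48.4 to 53.7) but a UMI in 43.6% of cells. Oasl1, which resembles the OAS enzymes and restrains Irf7 translation in mice, had 39.6 CPM (37.3 to 42.01) in 60.9% of cells, and its relative Oasl2 had 6.29 CPM (5.39 to 7.29) in 49.7%.

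The rare group held the genes best known as markers of a type I response. Isg15, a ubiquitin-like protein joined to other proteins, had 259 UMIs in 36 cells, of which Acinar71 held 76.8%. Ifit3, a tetratricopeptide protein that works with Ifit1 on foreign RNA, had 6.07 CPM (5.19 to 7.06) from 10 cells, and of its UMIs Acinar71 and Acinar22 held 92.9%. The same 2 cells held 72.5% of the 51 UMIs of Rsad2 (viperin, an antiviral enzyme), 68.8% of the 16 UMIs of Ifit1 and 65.3% of the 72 UMIs of Usp18, which removes Isg15 from proteins. Rtp4, a chaperone of receptors, had 67 UMIs in 28 cells, of which the 2 cells held 40.3%. Ifit2 differed from its neighbours: it had 23 UMIs in 16 cells and none in Acinar71 or Acinar22, although it lies 7112 bases from Ifit3 on chromosome 19. In thinned cells Isg15 had a UMI in 6.83% (95% exact binomial interval 3.46 to 11.9), Irf7 in 9.94% and Ifit3 in 3.11%, whereas Ifi35 had one in 79.5%.

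Spread over cells differed widely among the induced genes. The Fano factor, the variance over the mean of thinned UMIs, was 36.3 for Isg15, 23.9 for Ifit3 and 14.2 for Irf7, but 1.48 for Ifit1, 0.98 for Ifit2 and 1.78 for Rtp4, which are also rare. The thinned mean was only 0.0248 UMIs for Ifit1 and Ifit2 and 0.087 for Rtp4, against 0.348 for Isg15. Rsad2, also with a thinned mean of 0.087, had a factor of 7.53, and Usp18, with 0.0497, had 2.72. A low mean thus does not by itself keep the factor near 1. Genes with so few UMIs cannot be ranked safely by it. Among broadly detected genes it was 1.83 for Ifitm2, 1.87 for Ifi35 and 3.09 for Bst2. Without Acinar71 and Acinar22 it was 1.12 for Isg15, 0.99 for Ifit3 and 1.25 for Irf7, where 1 is the value of pure counting. The 2 cells were chosen for these genes, so this fall follows from the choice. Outside them, before thinning, Isg15 had 60 UMIs, Ifit3 12 and Irf7 71. These are too few to read values near 1 as pure counting. For Oasl1 the factor was 16.1 without the 2 cells against 16.6 with them, and for Ifitm3 11.4 against 11.7. The class I genes lay between 2.78 and 4.89, and the median of 9738 genes with a thinned mean of at least 0.5 UMI was 1.57. Isg15, Ifit3 and Irf7 were below that mean and are not among these genes.

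Antigen presentation at rest was led by the class I heavy chains. H2-D1 had 465 CPM (457 to 473), a median cell at 457 CPM with quartiles at 370 and 571 CPM, and a UMI in every cell. H2-K1 had 258 CPM (252 to 264), a median cell at 237 CPM and a UMI in 98.9% of cells. B2m, the light chain of both, had 217 CPM (211 to 222), a median cell at 179.2 CPM and a UMI in 97.8%. Per length B2m, which has the shortest exon length of these genes (0.86 kilobases), came first with 267 reads per kilobase in 1000000. H2-D1 followed with 207 and H2-K1 with 98.1. Of the 50-base words in the annotated transcripts, 12.8% of those of H2-D1 and 9.63% of those of H2-K1 also occur in other genes, chiefly each other and H2-Q genes, so a part of these counts is uncertain. The 5 cells with the highest class I sum among cells of at least 40000 UMIs were Acinar55 with 2685 CPM, Acinar175 with 2546 CPM, Acinar4 with 2502 CPM, Acinar155 with 2445 CPM and Acinar146 with 2238 CPM. H2-K1 and H2-D1 moved together weakly across thinned cells (Spearman 0.31, all but 18 cells), and each had a lower value with B2m (0.14 and 0.06).

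Peptide loading was uneven between its parts. Tapbp (tapasin, which holds class I molecules at the peptide transporter) had 98.1 CPM (94.4 to 101.8) in 96.6% of cells. The transporter chains had 20.99 CPM (19.3 to 22.8) in 79.9% of cells for Tap2 and 7.37 CPM (6.39 to 8.45) in 45.8% for Tap1. Tap1 shares 212 exon bases with Psmb9 on the other strand. Nlrc5, the transactivator of class I genes, had 2.77 CPM (2.18 to 3.46) and 77 UMIs in 20 cells. Cd74, the invariant chain of class II molecules, had 2.84 CPM (2.25 to 3.54) and 79 UMIs in 21 cells, and Cd274 (PD-L1, a ligand that restrains T cells) had 0.863 CPM (0.553 to 1.28) and 24 UMIs in 10 cells.

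Acinar71 and Acinar22 held the highest induced levels of all cells. They had 3335 CPM (3094 to 3589; 712 UMIs) and 2713 CPM (2501 to 2938; 605 UMIs) over the 21 induced genes, against a median of 307 CPM and at most 1590 CPM in the other cells. Together they held 12.3% of the induced UMIs of the series. Over 10 core genes, those that mark a type I response most closely (Isg15, Ifit1, Ifit2, Ifit3, Irf7, Oasl1, Oasl2, Usp18, Rsad2 and Rtp4), they held 39.96%. At equal depth of 40000 UMIs, Acinar71 had a UMI for 16 and Acinar22 for 15 of the 21 induced genes, against at most 13 in any other cell and a median of 6 over the thinned cells. For the core genes both had 8 of 10, against at most 3 in any other cell, and 60 of the thinned cells had none. Both cells were chosen with earlier results of these data known, so these gaps are a description.

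The 2 cells held partly different genes. Isg15 had 932 CPM in Acinar71 (199 UMIs), none of 222976 UMIs in Acinar22, which allows up to 13.5 CPM, and at most 32.8 CPM in the other cells. Ifitm3 had 506 CPM in Acinar71 and none in Acinar22, and Bst2 had 375 CPM in Acinar71 (80 UMIs) and 22.4 CPM in Acinar22 (5 UMIs), close to the median of 23.5 CPM over all cells. These 3 effectors were thus high in Acinar71 and not in Acinar22. The reverse held for Oasl1, with 18.7 CPM in Acinar71 (4 UMIs) and 718 CPM in Acinar22 (160 UMIs), and for Stat2, with 9.37 CPM in Acinar71 (2 UMIs) and 152.5 CPM in Acinar22 (34 UMIs). Both were higher still in another cell, Oasl1 at 1381 CPM in Acinar98 and Stat2 at 688 CPM in Acinar162. Ifit3 was high in both named cells, with 150 CPM in Acinar71 (32 UMIs) and 561 CPM in Acinar22, against at most 36.7 CPM in the other cells. Irf7 was also high in both, with 585 CPM in Acinar71 and 368 CPM in Acinar22 (82 UMIs), against at most 130 CPM in the other cells. Oasl2 was alike in both, at 79.6 CPM in Acinar71 and 80.7 CPM in Acinar22. Of the 50-base words in Ifit3 transcripts, 51.2% also occur in Ifit3b, so the split of counts between that pair is uncertain.

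Each cell was also set against the pooled others, with 5 CPM added to both sides, over the 16677 genes with a pooled level of at least 1 CPM. A gene was called higher at 5 times or more with at least 5 UMIs in the cell. In Acinar71 this called 9 of the 31 members that could be called, against 0.66% of all genes (110 of 16677): Isg15 at 130.6 times, Irf7 at 56.01, Ifit3 at 15.5, Usp18 at 11.4, Bst2 at 11.03, Ifitm3 at 9.73, Dhx58 at 8.05, Oasl2 at 7.89 and Tap1 at 5.10 times. In Acinar22 it called 8 of 31, against 1.43% of all genes (239 of 16677): Ifit3 at 85.8 times, Irf7 at 30.8, Rsad2 at 25.2, Usp18 at 22.2, Oasl1 at 18.5, Rtp4 at 17.2, Oasl2 at 8.02 and Stat2 at 5.97 times. Just outside the limit was Rsad2 in Acinar71 at 4.99 times, beside Tap1 just inside it, and Tapbp in Acinar22 at 4.29 times. Ifit1, Ifit2 and Cd274 were below 1 CPM pooled, and Ifit3, Usp18 and Rsad2 passed that limit only through these 2 cells. The median fold of the 31 members was 2.35 in Acinar71 and 2.06 in Acinar22, against 0.81 and 0.68 for all genes. The comparisons share all of their other cells but 1, and the 2 cells were chosen for these genes.

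Class I genes stood less far above the other cells than induced genes in Acinar71 and Acinar22. Both cells were chosen for their induced genes, so this gap was set in part by the choice. The class I sum was 1822 CPM (1645 to 2012) in Acinar71 and 1731 CPM (1563 to 1913) in Acinar22, at rank 6 and 7 of all cells, against a median of 900 CPM in the others. None of B2m, H2-K1 and H2-D1 was called, with folds of 1.79 to 2.35 in Acinar71 and 1.30 to 2.63 in Acinar22. Tapbp was higher than in every other cell of at least 40000 UMIs, at 375 CPM in Acinar71 and 426 CPM in Acinar22, against a median of 84.7 CPM in the other cells. The receptor sum was 248 CPM in Acinar71 and 274 CPM in Acinar22, against a median of 227 CPM, and Ifnar2 had 6 UMIs in Acinar71 and none in Acinar22.

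**Figure D3:**
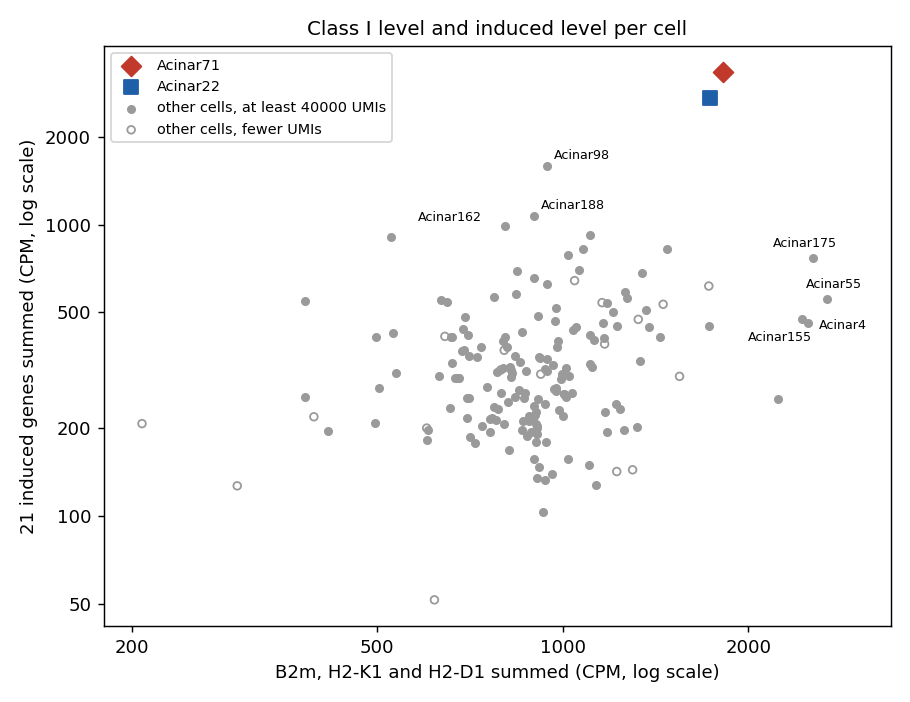
Sum of the 21 induced genes against the sum of B2m, H2-K1 and H2-D1 in each cell, both in CPM on logarithmic axes. Acinar71 (red diamond) and Acinar22 (blue square) stand above all other cells on the induced axis, at 3335 and 2713 CPM, while Acinar55 is farthest right at 2685 CPM; open circles are cells with fewer than 40000 UMIs.

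Across cells the class I and induced sums were nearly unrelated, with a Spearman correlation of 0.15 over the thinned cells and 0.12 without Acinar71 and Acinar22. The induced sum had 0.29 with the receptor sum, and the class I sum had 0.24 with a list of acute phase and NF-kB target genes (Lcn2, Saa3, Cxcl1, Cxcl5, C3, Nfkbia, Tnfaip3, Icam1 and Ccl20). That list stood at 3920 CPM in Acinar71 and 130 CPM in Acinar22, against a median of 2381 CPM in the other cells. Weak values of this size in sparse counts are no finding.

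Outside the 34 genes, a wider list of other interferon-stimulated genes was looked at in the same 2 cells. It summed to 2937 CPM in Acinar71 and 3758 CPM in Acinar22, against a median of 684 CPM in the other cells. Its 2 highest sums were in other cells: Acinar167 had 20144 CPM and Acinar125 5224 CPM, of which Trim30a made up 97.7% and 95.4%, and Acinar171 stood between Acinar22 and Acinar71 with 3316 CPM, of which Trim30a made up 95.7%. These 3 cells are shallow, with 19261, 12442 and 6936 UMIs. Of its 38 genes that could be called, 9 were called in Acinar71, against 0.66% of all genes, among them Ifi44 at 20.6 times and Oas1g at 10.5 times. In Acinar22 12 were called, against 1.43% of all genes, among them Ifit1bl1 at 102.2 times and Oas2 at 27.3 times. Ifit3b was among those called in both, but 92.3% of its UMIs were in these 2 cells, so that it could be called only through them. Trim25, which modifies RIG-I, was called in Acinar22 at 8.76 times. The immunoproteasome subunits Psmb8 and Psmb9 were called in Acinar71 at 7.69 and 6.37 times, and none of the 10 class I processing genes was called in Acinar22. Of 10 immune cell markers with an entry, Acinar71 had UMIs for 3 (Aif1 7, Cd68 1 and Csf1r 1), summing to 42.2 CPM, and Acinar22 for none, against a median of 5.97 CPM and at most 259 CPM in the other cells. Ptprc, the pan-leukocyte gene CD45, was at 0 UMIs in both. Whether the immune marker level of Acinar71 has a part in its values was not tested.

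Genes outside all lists that led each cell differed. In Acinar71 they were Olfr373, Gm34983, Dnah10, Eml5, Pias1, Olfr11, Gpr179, Slc39a9, Gm41230 and Gm27188, led by Olfr373 at 85.05 times. Gm34983 and Olfr11 had 0.724 and 0.0362 CPM pooled over the other cells, so they passed the limit of 1 CPM only through Acinar71. Pias1 had 1213 CPM there against 33.8 CPM pooled over the other cells. In Acinar22 they were Gkn2, Gkn1, Cldn18, Mucl3, Psca, Gm3880, Vsig2, Clca1, Ces2c and 2210407C18Rik, led by the gastric pit genes Gkn2 at 416 times and Gkn1 at 253 times.

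Induced genes were high in other cells too, with 1 gene making up most of the sum in the next cells. Acinar98 was next over the induced genes with 1590 CPM (1253 to 1991; 76 UMIs), and Oasl1 made up 86.8% of it. Acinar162 had 987 CPM, of which Stat2 made up 69.7%, with Ddx58 also high at 149.4 CPM. Acinar188 had 1071 CPM and Acinar132 921 CPM, led by Ifitm3 with 60.2% and 66.5%, and Acinar188 also had Ifitm2 at 229.9 CPM. Acinar172 and Acinar19 had the highest Irf1 of the cells with at least 40000 UMIs, at 197.8 and 191.2 CPM, beside Ifitm3 at 363 and 191.2 CPM. None of Acinar98, Acinar162, Acinar188 and Acinar132 had a UMI of Isg15 or Ifit3. In Acinar98, with 47789 UMIs, that allows up to 62.8 CPM of each. Acinar19 had Isg15 at 7.08 CPM and no UMI of Ifit3.

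**Figure D4:**
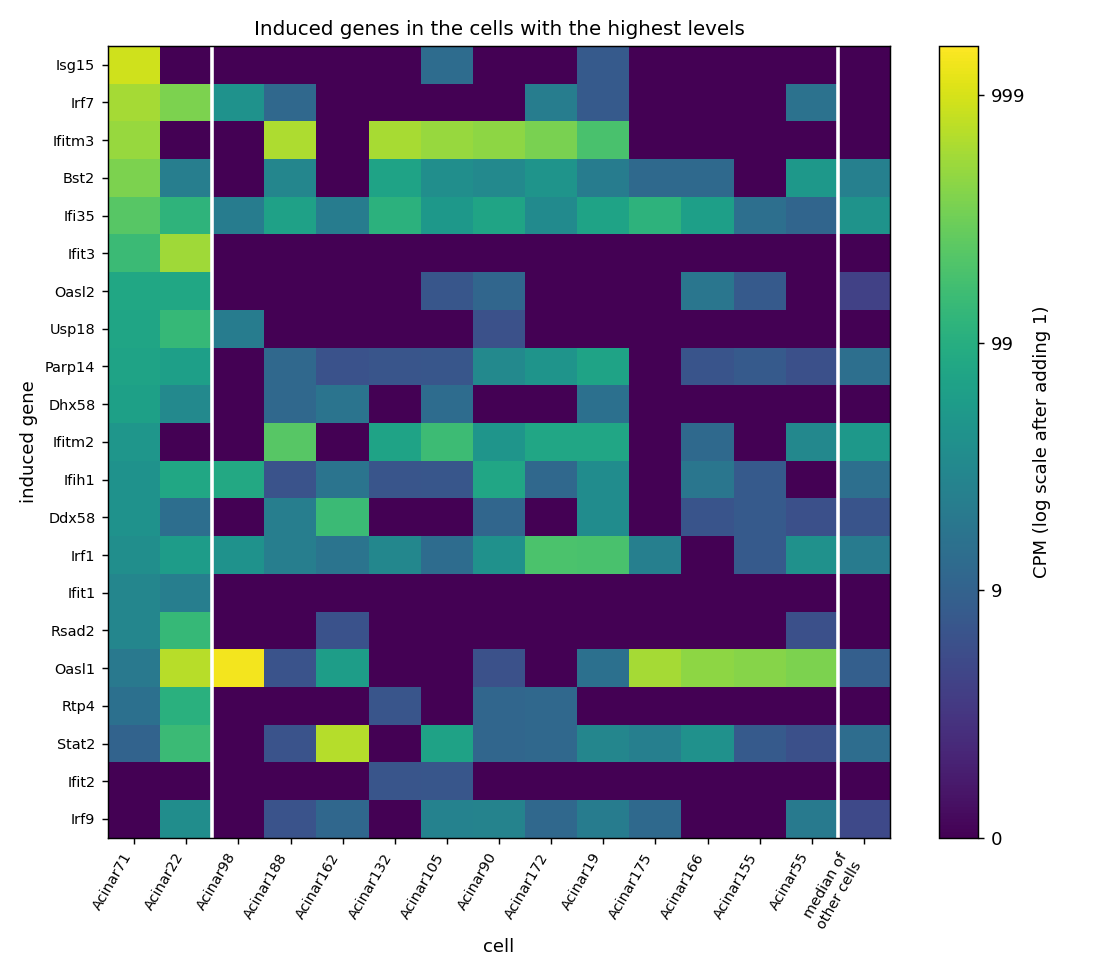
Level of each of the 21 induced genes (rows, ordered by their level in Acinar71) in Acinar71, Acinar22, 12 other cells with high induced or high Oasl1 levels, and as the median of the remaining cells (last column), as colour on a logarithmic scale of CPM plus 1. Acinar71 and Acinar22 are bright in many rows, while the other cells are brightest in rows such as Oasl1, Ifitm3 or Stat2.

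Oasl1 varied on its own. After Acinar98 with 1381 CPM (66 UMIs) and Acinar22 with 718 CPM came Acinar175 with 585 CPM, Acinar166 with 452 CPM, Acinar155 with 418 CPM and Acinar55 with 371 CPM, against a median of 8.74 CPM over all cells. In Acinar175 all 51 core UMIs were Oasl1, and in Acinar55 94.9% were. Acinar98 and Acinar22 were also the 2 cells with the highest Gkn2, at 17075 and 20760 CPM, where no other cell exceeded 643 CPM. Acinar55 and Acinar155 had rank 2 and 3 for a list of acinar genes, at 21604 and 9949 CPM, and both were among the 5 highest class I cells. Acinar52, first for acinar genes with 229847 CPM, had Oasl1 at 11.1 CPM and a class I sum of 1101 CPM. Acinar166 had neither, with Gkn2 at 5.72 CPM and acinar genes at 114.4 CPM. These marker levels were looked up after the Oasl1 values were seen, and whether they have a part in them was not tested. Oasl1 and Oasl2, which lie 11006 bases apart on chromosome 5, had a Spearman correlation of −0.07 over the thinned cells.

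Ifitm3 and the class I genes set apart the cells rich in fibroblast genes. These are the 6 cells with at least 1000 CPM over Col1a1, Col1a2, Col3a1, Dcn, Lum, Pdgfra, Pdgfrb, Thy1 and Postn, with Fn1 left out of the list after its values were seen. Ifitm3 had 213, 317 and 645 CPM as lowest, median and highest of these 6 cells, against 0, 0 and 612 CPM in all others, of which 72 had a UMI. Ifitm2 had a median of 83.9 CPM (67.3 to 230) in the 6 cells, against 46.8 CPM (0 to 370) in the others. For Ifitm3 every fibroblast-rich cell thus lay above the median of the others, though the ranges overlapped.

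The class I chains went in opposite directions there. H2-K1 had 18.8, 25.9 and 129.04 CPM as lowest, median and highest of the 6 fibroblast-rich cells, against a median of 243 CPM in the others. H2-D1 had 31.3, 104.6 and 331 CPM, against a median of 463 CPM. B2m had 267, 462 and 600 CPM, against a median of 173.9 CPM. Heavy chains were thus below and the light chain above the medians of the other cells in all 6, while the ranges overlapped. Oasl1 had a UMI in 1 of the 6 cells, and a median of 9.52 CPM in the others. Of the receptor chains, 3 had higher medians in the 6 cells. These were Ifnar1 with 81.4 CPM against 39.4 CPM in the others, Ifnar2 with 37.9 against 17.4 CPM, and Ifngr2 with 153.025 against 88.1 CPM. Ifngr1 had a lower median, at 27.2 CPM against 51.7 CPM. The lowest Ifnar1 of the 6 cells, at 12.5 CPM, lay below the median of the others, and the ranges of all 4 chains overlapped.

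**Figure D5:**
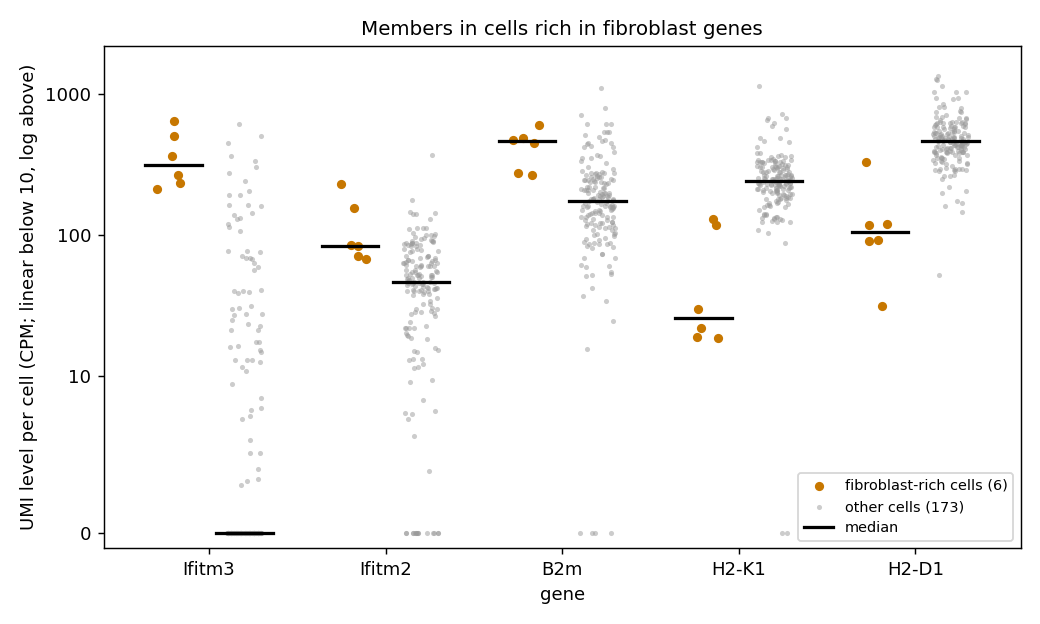
UMI level of Ifitm3, Ifitm2, B2m, H2-K1 and H2-D1 per cell, in CPM on an axis that is linear below 10 and logarithmic above, in the 6 fibroblast-rich cells (orange) and all other cells (grey), with black bars for medians. H2-K1 has medians of 25.9 and 243 CPM, and B2m of 462 and 173.9 CPM, in the fibroblast-rich and the other cells.

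The rest of the pathway was present above and below the 34 genes. Of 12 interferon ligands, 3 had an entry and the others were not analysed here: Ifnk had 3 UMIs, Ifne 1 and Ifnz 0 of 27825416 UMIs, which allows up to 0.108 CPM. Signalling genes were led by Stat3 with 114.2 CPM, Jak1 with 102.96 CPM and Irf3 with 93.1 CPM, and sensing genes by Tbk1 with 61.5 CPM, Traf3 with 53.7 CPM and Trim25 with 42.9 CPM. Class I processing was led by the chaperones Calr with 511 CPM, Canx with 319 CPM and Pdia3 with 266 CPM. Other class I genes were led by H2-T23 with 75.9 CPM, H2-Q4 with 23.4 CPM and H2-T22 with 20.9 CPM. Other interferon-stimulated genes were led by Lgals9 with 130 CPM, Lgals3bp with 116.2 CPM and Eif2ak2 with 51.2 CPM. Class II presentation and costimulation genes were low: the costimulatory genes Cd40 and Cd80 had 5.18 and 2.62 CPM, the class II peptide exchange gene H2-DMa had 5.03 CPM, and the transactivator Ciita had 3 UMIs in all cells.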

How the data were processed

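Single-cell RNA was measured in 179 cells of 1 group, each a sample of its own. The authors deposited whole-number UMI counts and read counts per cell and gene; per the submitters' processing notes, GRCm38 and mm10 were the builds and STAR and featureCounts the tools, with no version stated. The collapsing of UMIs, the treatment of reads that match several genes and the use of strand are not given in the sources at hand. Gene symbols were matched to 31985 of 32100 identifiers; positions and exon lengths are from GENCODE M21 (GRCm38), promoters from RefSeq (27 of 34 members).

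All cells passed a minimum of 1000 UMIs. No doublet caller was run, since each sample is labelled as 1 cell. CPM, exact 95% Poisson and binomial intervals, thinning to 40000 UMIs (161 cells kept, 18 left out) and folds with 5 CPM added were computed in Python 3.11.15 with numpy 2.4.6, pandas 2.3.3 and scipy 1.17.1, and the steps were tested on simulated data. The limit given beside 0 UMIs is 3 counts. The text gives every member, the 3 highest genes of each other pathway list, ligands with a UMI, and 10 leading genes outside the lists for each named cell. Members and lists were chosen with earlier results of these data known. Alternatives were reads for UMIs, equal weight per cell, cells left out, other denominators, title numbers and thinning depths. One gene of the wider pathway lists is not reported here.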

Additional observations from a re-analysis of the deposited data

How the results depend on the processing

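The class I level of 939 CPM was 1052 with reads, 958 with equal weight per cell, 926 without Acinar71 and Acinar22, 959 without the 14 cells at 1000 CPM or more for fibroblast genes, and 953 without the 6 left when Fn1 is not counted, a setting chosen after seeing the data. The induced level of 385 CPM was 362 without Acinar71, 366 without Acinar22 and 343 without both. It was 377 without the 14 and 375 without the 6 fibroblast-rich cells, 403 for title numbers up to 96 and 360 from 97. Acinar71 and Acinar22 are both among the title numbers up to 96, and this split was not repeated without them. Cells with at least 3 induced genes, 97.5% at 40000 UMIs, were 84.02% at 20000 and 100% at 80000; 1 gene gave 100% and 5 genes 77.6%. The share of induced UMIs in Acinar71 and Acinar22, 12.3%, was 10.8% with reads, 39.96% over the core genes and 8.79% with equal weight. Of the 34 single levels, 7 (Isg15, Ifit1, Ifit3, Irf7, Usp18, Rsad2 and Rtp4) fell past 1.5 times without Acinar71 and Acinar22, and 1 (Ifngr1) moved past 1.5 times with reads. No paired analysis was possible because all cells form 1 group. Depth limits the rare genes: 1 UMI is 25 CPM in a thinned cell.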
